A study of Sus scrofa with 14 samples.

Results

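Adding tri-iodothyronine (T3) and dexamethasone (Dex) to heart slices kept under stretch was examined by RNAseq of pig left ventricle slices cultured in the cardiac tissue culture model (CTCM), a chamber that stretches and paces the tissue in time with a simulated cardiac cycle. The members are the 4 libraries of slices cultured in the CTCM, of 14 libraries in the series, chosen by their labels: MT-1 and MT-2, with 100 nM T3 and 1 µM Dex in the medium for 12 days, and MC-1 and MC-2, with the same medium without T3 and Dex for 12 days. The remaining libraries served as context and to estimate the spread between replicates: 4 of static culture with T3 and Dex at the same doses (TD), 4 of static culture without them (Ctrl), both also cultured for 12 days, and 2 of fresh slices (D0). Static slices were not stretched. These groups and the 12 days follow each library's group label, and the deposited entries conflict with it in places: the label of MT-2 names T4 in place of T3, and the general treatment entry names T3 and Dex for all 14 libraries, MC, Ctrl and D0 included. The study's text also allows a shorter culture. The number of pigs behind each library is not given in the sources used here, so p-values measure the spread between these libraries only, which may be technical.

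T3 is the active thyroid hormone. It enters the nucleus and binds the thyroid hormone receptors THRA and THRB, which sit on DNA and switch between repression and activation of their targets, and in the heart it is known for the switch from fetal to adult forms of contractile and calcium handling proteins. Dex is a synthetic glucocorticoid that binds the receptor NR3C1, which then raises feedback genes such as FKBP5 and TSC22D3 and lowers many inflammatory genes. Both are used in culture to mature cardiomyocytes, the muscle cells whose troponins, myosin light chains and actins make up the sarcomere, the contractile unit.

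The values are fragments per kilobase of transcript scaled to library size (FPKM), and a difference is given as the log2 fold change of MT over MC on the log2(FPKM + 1) scale with its standard error, from limma, with a spread shared over all 14 libraries because MT and MC have 2 libraries each. The spread was not the same in all conditions: the typical standard deviation between replicates (root mean square over genes) was 0.632 in MT, 0.402 in MC, 0.369 in TD, 0.252 in Ctrl and 0.165 in D0 on this scale. Depth, measured from the step in FPKM that 1 read makes and relative to D0-1, was 0.753 and 0.499 in MT and 0.738 and 0.47 in MC, so both conditions held 1 shallow library. Of the 13644 genes in the table, 2335 and 2854 were listed at 0 in MT-1 and MT-2, against 1127 and 1457 in MC-1 and MC-2 and 595 to 833 in the 10 other libraries. Of 621 genes with at least 20 reads in both MC libraries, 166 (26.7%) were listed at 0 in MT-1, 246 (39.6%) in MT-2 and 86 in both, whereas of 372 genes with at least 20 reads in both MT libraries 9 (2.42%) were listed at 0 in MC-1 and 19 (5.11%) in MC-2. The same count between TD and Ctrl gave at most 0.388% in any library. A gene listed at 0 in an MT library is therefore given by its values and not read as a fall.

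**Figure D1:**
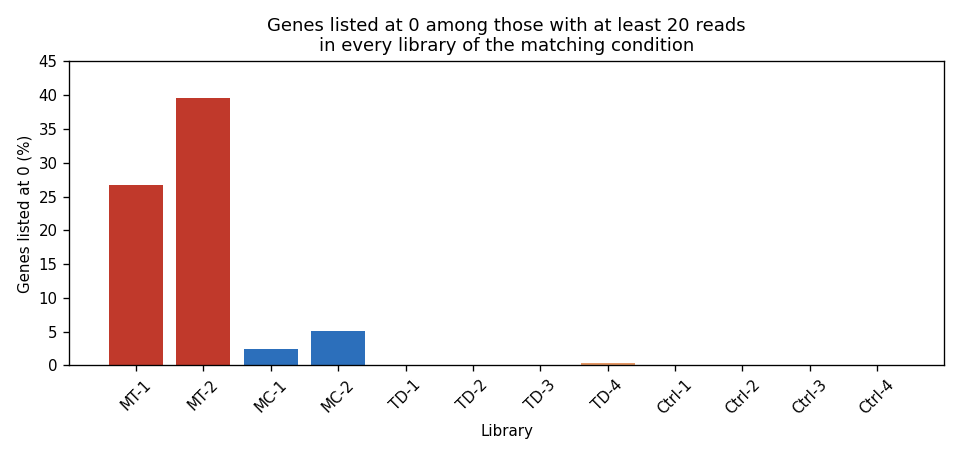
Share of genes listed at 0 (percent, bars) in each library, among genes with at least 20 reads in every library of the matching condition (MC for MT, MT for MC, Ctrl for TD and TD for Ctrl). MT-1 and MT-2 stand at 26.7% and 39.6%, MC-1 and MC-2 at 2.42% and 5.11%, and no TD or Ctrl library above 0.388%.

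Before MT is set against MC, the libraries were checked against their labels with the genes that T3 and Dex moved in static culture. Between TD and Ctrl, 401 genes were called (limma, adjusted p under 0.05), 3.48% of those tested, and 192 of them differed by at least 1 on the log2 scale, 74 raised and 118 lowered in TD. The levels in MT and MC did not enter the difference that chose them, but the spread and the filter behind the calls drew on all 14 libraries, MT and MC included. On a scale where the Ctrl mean is 0 and the TD mean is 1, the median position of these genes was 0.82 in MT-1 and 0.76 in MT-2, against 0.99 in MC-1 and 1.00 in MC-2, and it was -0.20 and -0.16 in D0. Of the 192 genes, 156 and 126 were nearer to the TD mean than to the Ctrl mean in MT-1 and MT-2, against 186 and 184 in MC-1 and MC-2. None of the 192 was called between MC and TD (limma, adjusted p under 0.05). The share called over all genes is not given for this comparison, so the absence of calls does not show equal levels. The group label of the MC libraries gives no T3 or Dex, but their general treatment entry, shared by all libraries, names both. By median position the MC libraries lay at the level of static slices that received both, and closer to it than the libraries labelled MT. Whether the stretch, the medium or the labels put the MC libraries there cannot be told apart in these data, and every difference between MT and MC below is a difference between libraries with those labels.

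**Figure D2:**
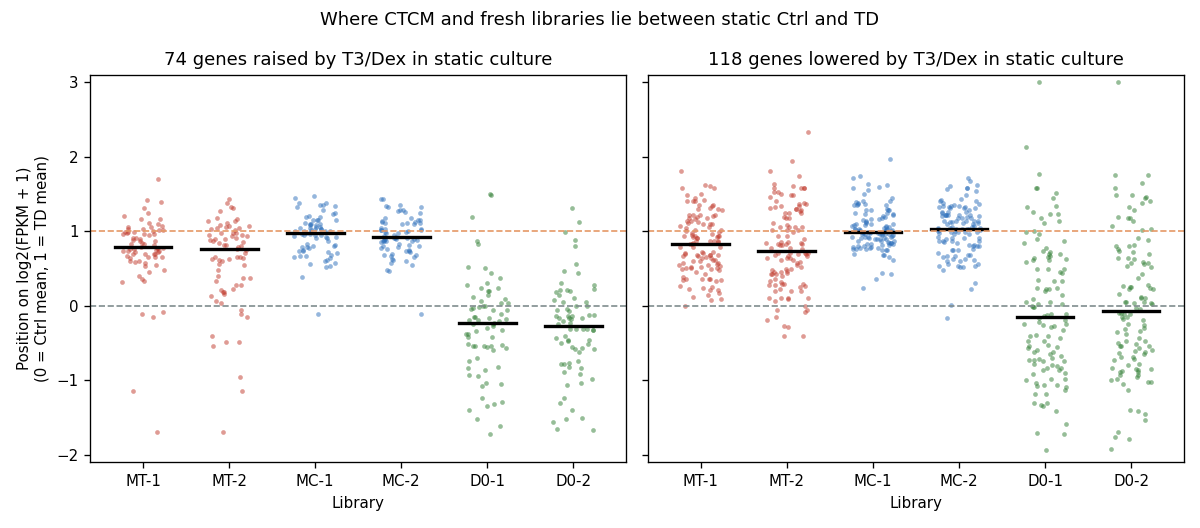
Position of the genes raised (74, left) and lowered (118, right) by T3/Dex in static culture, each point 1 gene in 1 library on the log2(FPKM + 1) scale, with 0 the Ctrl mean, 1 the TD mean and black lines the medians; points beyond the axis are drawn at its edge. MT and MC libraries all have medians from 0.74 to 1.04, while the D0 medians lie from -0.27 to -0.07.

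FKBP5, TSC22D3 and FMO1, which T3/Dex raised in static culture, were high in both MT and MC. FKBP5, the co-chaperone that dampens the glucocorticoid receptor, had 55.6 and 51.9 FPKM in MT, against 79.8 and 64.5 FPKM in MC. Its level was 73.1 to 89.4 FPKM in TD, 17.4 to 32.6 FPKM in Ctrl and 22.9 and 23.0 FPKM in D0. MT and MC did not overlap, but the difference of -0.41 (standard error 0.26) did not pass (adjusted p = 0.506), whereas MC was above Ctrl by 1.52 (standard error 0.23, adjusted p = 0.00321) and differed from TD by -0.14 (standard error 0.23, adjusted p = 0.878). TSC22D3, the leucine zipper protein that carries part of the anti-inflammatory glucocorticoid action, had 55.5 and 67.1 FPKM in MT, against 50.9 and 55.2 FPKM in MC, with 22.9 to 30.8 FPKM in Ctrl. MC was above Ctrl by 1.00 (standard error 0.15, adjusted p = 0.00291). FMO1, a flavin monooxygenase of drug metabolism, had 84.2 and 70.3 FPKM in MT and 104 and 125 FPKM in MC, against 2.17 to 5.20 FPKM in Ctrl. All MT and MC libraries lay above the Ctrl range for FKBP5, TSC22D3 and FMO1.

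DIO3, the deiodinase that inactivates thyroid hormone, fell in MT. It had 4.65 and 2.55 FPKM in MT, against 14.8 and 14.9 FPKM in MC. TD libraries had 16.6 to 33.5 FPKM, Ctrl libraries 0.445 to 2.71 FPKM and D0 libraries 18 and 18.8 FPKM. Both MT libraries lay below all TD, MC and D0 libraries, and MT-2 lay inside the Ctrl range. The difference was -1.82 (standard error 0.41, adjusted p = 0.0307), while in static culture T3/Dex raised DIO3 by 3.33 (adjusted p = 2.88e-05). MC was above Ctrl by 2.61 (standard error 0.36, adjusted p = 0.00184). The fall of DIO3 in MT was called in 8 of 20 other settings: it was lost without MC-1, MC-2 or MT-2, and, among others, with a pseudocount of 0.1, the filter at 5 FPKM, each rescaling, quantile normalization and without the D0 libraries (adjusted p from 0.0109 to 1). Among 39 glucocorticoid receptor targets tested, 0 rose and 0 fell in MT against MC, with a median of -0.02. Over all genes tested, 3.19% were called and the median was -0.04, so a list of this size would hold few calls. In TD against Ctrl, 6 of these 39 rose, beside 145 of all 11527 genes tested. Of 22 thyroid hormone response genes tested, DIO3 alone was called, which is near the share over all genes, and the median was -0.01. The receptors THRA (1.39 and 2.25 FPKM in MT, 2.81 and 1.78 FPKM in MC) and THRB (1.52 and 0.537 FPKM in MT, 0.773 and 0.971 FPKM in MC) did not pass, nor did ATP2A2, the calcium pump of the sarcoplasmic reticulum, with 17.1 and 19.8 FPKM in MT and 17.1 and 11.5 FPKM in MC. KLF9, a factor induced by both hormones in many tissues, had 52.0 and 38.7 FPKM in MT and 56.2 and 39.2 FPKM in MC.

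**Figure D3:**
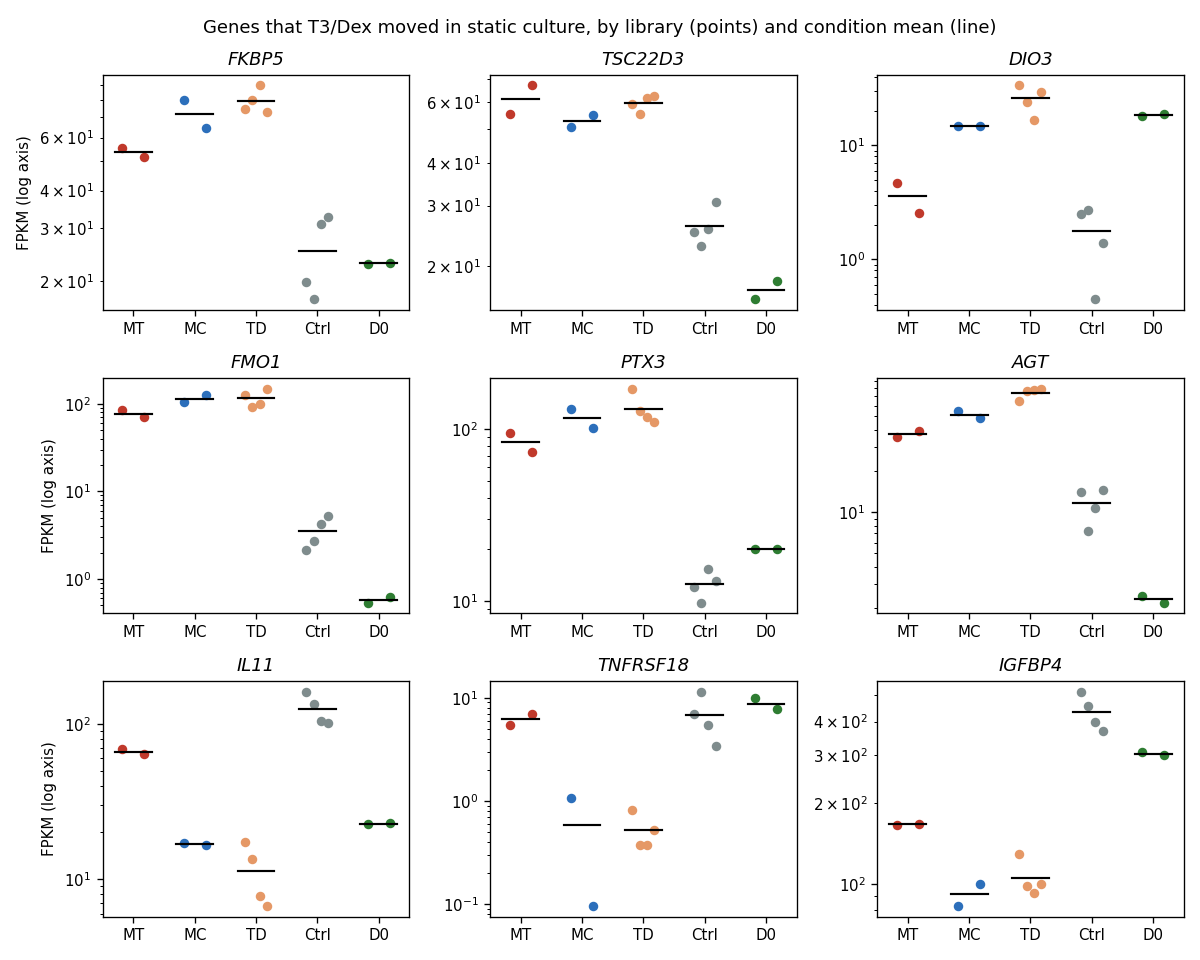
FPKM (log axis) of 9 genes that T3/Dex moved in static culture, with points for libraries and lines for condition means, in the order MT, MC, TD, Ctrl and D0. For FKBP5, FMO1 and PTX3 the MC points lie near TD and the MT points slightly below them, and for IL11 and TNFRSF18 the MT points lie above the MC points, toward Ctrl.

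Over all genes, 368 of the 11527 tested were called between MT and MC (limma, adjusted p under 0.05), 3.19% of them, with 102 higher in MT (0.885%) and 266 lower in MT (2.31%). Of the 266 genes called lower, 190 were listed at 0 in at least 1 MT library and 134 in both. Among the 9893 genes above 0 in all 4 libraries, the split was even, with 88 higher and 76 lower, and their median difference was -0.01. The count rests on the spread lent by the other libraries. Fitted on the 4 libraries alone limma called 0 genes, with 595 at an unadjusted p under 0.05, and with limma's sample weights, which weigh noisier libraries less, 1 gene passed. That 1 gene was an entry for U6, and no other gene named here passed between MT and MC in those fits. Each other call thus holds only where all conditions are taken to have the same spread. The spread was in fact largest in MT, so the adjusted p-values may be too small. Leaving out MT-1 raised the count to 2127 and leaving out MT-2 raised it to 873, and without MC-1 or MC-2 it was 231 or 217.

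Genes of the contractile apparatus were the clearest rise in MT. Of the 10 largest rises among genes above 0 in all 4 libraries, 7 encode muscle proteins: TNNC1, TNNT2, MYL2, MYL3, CKM, ACTC1 and ACTA1. Of 29 sarcomere genes tested, 9 rose and 0 fell, with a median of 0.39. Of 11 cardiomyocyte markers tested, 6 rose and 0 fell, with a median of 2.06. Over all genes tested, 0.885% were called higher in MT and the median was -0.04. The called markers are also on the sarcomere list, so the marker count is not a separate result. In these bulk libraries, fewer cells of a type and less RNA per cell cannot be told apart. Each of these promoters, the 250 bases before the annotated start of the gene in RefSeq (Sscrofa11.1, given in the direction of the gene), was read for motifs, and those of the 4 muscle genes with the largest rises are shown because the 4 genes moved together. Capitals mark the M-CAT motif CATTCC on either strand and the CArG box, binding motifs of the muscle factors TEAD and SRF.
TNNC1: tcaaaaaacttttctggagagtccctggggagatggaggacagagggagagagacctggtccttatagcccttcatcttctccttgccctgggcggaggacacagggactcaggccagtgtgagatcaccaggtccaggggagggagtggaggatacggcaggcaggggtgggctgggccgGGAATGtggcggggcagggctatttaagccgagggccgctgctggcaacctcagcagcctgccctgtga
TNNT2: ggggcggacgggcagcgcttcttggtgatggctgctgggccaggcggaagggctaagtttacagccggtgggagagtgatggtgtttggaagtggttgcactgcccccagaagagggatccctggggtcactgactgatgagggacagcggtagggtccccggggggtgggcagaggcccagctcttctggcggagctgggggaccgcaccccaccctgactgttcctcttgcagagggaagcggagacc
MYL2: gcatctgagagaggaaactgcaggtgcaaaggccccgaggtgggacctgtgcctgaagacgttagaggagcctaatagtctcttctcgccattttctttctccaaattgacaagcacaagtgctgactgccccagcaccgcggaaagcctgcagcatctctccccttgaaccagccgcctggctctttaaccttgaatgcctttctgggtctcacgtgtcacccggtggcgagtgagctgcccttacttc
MYL3: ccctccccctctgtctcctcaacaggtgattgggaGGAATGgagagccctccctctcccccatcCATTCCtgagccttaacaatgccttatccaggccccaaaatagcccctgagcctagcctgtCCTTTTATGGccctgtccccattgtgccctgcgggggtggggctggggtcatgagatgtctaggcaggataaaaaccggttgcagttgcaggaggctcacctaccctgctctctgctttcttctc
The M-CAT motif was present once in the TNNC1 window and in 2 copies in the MYL3 window, and MYL3 also held 1 CArG box. The windows of TNNT2 and MYL2 held neither, and no window of these 4 held AGAACA or AGGTCA, the core motifs of the glucocorticoid and thyroid hormone receptors, on either strand. Of the 3 other muscle genes among these rises, CKM held AGGTCA in 2 copies that share 1 base, and ACTC1 and ACTA1 held none of the 4 motifs. Among 19556 promoter windows of the same length, 10.3% held CATTCC, 1.31% a CArG box, 10.3% AGAACA and 12.2% AGGTCA. These matches are a description of the letters only.

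TNNC1, cardiac troponin C, the calcium sensor of the thin filament (ENSSSCG00000011441, chromosome 13 from 34591571 to 34594320), had 67.6 and 127 FPKM in MT, against 11.4 and 17.1 FPKM in MC. The D0 libraries had 97.9 and 67.1 FPKM, and the static libraries at most 9.33 FPKM. MT thus spanned the fresh level and did not overlap with MC, and the rise was 2.65 (standard error 0.51, adjusted p = 0.0141). TNNT2, cardiac troponin T, which anchors troponin to tropomyosin (ENSSSCG00000023031, chromosome 10 from 23749528 to 23759696), had 24.5 and 36.5 FPKM in MT, against 4.76 and 3.74 FPKM in MC. Fresh slices had 23.3 and 16.5 FPKM, both below the MT libraries, and static libraries at most 1.75 FPKM. TNNT2 rose by 2.57 (standard error 0.31, adjusted p = 0.00121).

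The ventricular regulatory light chain MYL2 had 73.4 and 205 FPKM in MT, against 20.2 and 30.4 FPKM in MC, with 332 and 285 FPKM in D0. Its MT libraries differed widely from each other, yet both lay above MC and below D0, and MYL2 rose by 2.26 (standard error 0.51, adjusted p = 0.0297). MYL3, the ventricular essential light chain, had 14.5 and 46.1 FPKM in MT, against 3.51 and 6.15 FPKM in MC, and rose by 2.25 (standard error 0.49, adjusted p = 0.0253). CKM, the muscle creatine kinase that regenerates ATP at the myofibril, had 5.25 and 7.58 FPKM in MT, against 0.432 and 1.06 FPKM in MC. Fresh slices had 32.2 and 26.8 FPKM, so MT reached 21.7% and MC 2.53% of the fresh mean, and CKM rose by 2.09 (standard error 0.25, adjusted p = 0.00121). ACTC1, cardiac alpha actin, had 7.78 and 8.28 FPKM in MT, against 0.161 and 3.04 FPKM in MC. Of the MC libraries, MC-1 stood at the static level for ACTC1 and MC-2 well above it, and the gene rose by 2.06 (standard error 0.42, adjusted p = 0.0184).

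ACTA1, skeletal alpha actin, which the fetal and stressed heart also uses, had 14.8 and 26.8 FPKM in MT, against 2.72 and 7.71 FPKM in MC, and rose by 1.88 (standard error 0.41, adjusted p = 0.0266). MYOZ2, a Z-disc protein that tethers calcineurin, had 4.03 and 5.85 FPKM in MT, against 1.44 and 2.39 FPKM in MC (1.03, standard error 0.25, adjusted p = 0.0444). CKMT2, the mitochondrial creatine kinase of muscle, had 1.55 and 1.23 FPKM in MT, against 0 and 0.162 FPKM in MC (1.15, standard error 0.16, adjusted p = 0.00268). These 9 genes stood at 21.7% to 171% of the fresh mean in MT, with a median of 99.5%. In MC they stood at 2.53% to 34.2%, with a median of 17.3%. The TD and Ctrl means of the 9 genes were at most 5.94% of the fresh mean. As the 9 genes were picked by their call between MT and MC, these levels describe them only. Summed over all 29 sarcomere genes tested, the level was 465 and 716 FPKM in MT, 284 and 338 FPKM in MC and 1622 and 1330 FPKM in D0. Without MC-1 the calls of TNNC1, MYL2, MYL3, ACTC1 and ACTA1 were lost, without MT-2 those of TNNC1, MYL2, MYL3 and ACTA1, and without MC-2 those of MYL2 and MYL3. TNNT2 and CKM kept their call with any 1 MT or MC library left out.

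The 20 sarcomere genes that were not called differed among themselves, from 2.20% to 205% of the fresh mean in MT and from 1.70% to 169% in MC. Their median was 52.8% in MT and 16.5% in MC. DES, ANKRD1, LMOD2 and CSRP3, chosen after their values were seen, were low in both. DES, desmin, the muscle intermediate filament, had 3.09 and 4.34 FPKM in MT and 4.68 and 3.74 FPKM in MC, against 179 and 158 FPKM in D0. ANKRD1, a stretch-responsive ankyrin repeat protein of the titin filament, had 28.8 and 20.2 FPKM in MT and 31.7 and 19.8 FPKM in MC, against 436 and 341 FPKM in D0. LMOD2, which sets thin filament length, had 1.32 and 2.61 FPKM in MT and 4.41 and 1.45 FPKM in MC, with 19.2 and 17.2 FPKM in D0. CSRP3, the muscle LIM protein of the Z-disc, had 1.83 and 0.153 FPKM in MT and 1.45 and 1.47 FPKM in MC. Log2 differences of DES, ANKRD1, LMOD2 and CSRP3 between MT and MC lay at -0.15 (standard error 0.31), -0.05 (standard error 0.39), -0.33 (standard error 0.48) and -0.44 (standard error 0.43), and none passed (adjusted p = 0.903, 0.987, 0.843 and 0.709). DES stood at 2.20% of the fresh mean in MT, where TNNC1 was at 118%. CRYAB, FHL2, NEXN and PDLIM5 were near the fresh level in both, at 91.9% to 139% in MT and 78.2% to 105% in MC. MYBPC3 and ACTN2, of the thick filament and the Z-disc, stood at 53.8% and 59.2% of the fresh mean in MT, against 5.20% and 11.0% in MC, with most of the MT level in MT-2 (0.212 and 3 FPKM of MYBPC3, 0.400 and 2.12 FPKM of ACTN2), and did not pass (adjusted p = 0.239 and 0.173). MYH7, whose entry the reference names as MYH6, was near 0 in all libraries, D0 included (at most 1.32 FPKM), and checks nothing.

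**Figure D4:**
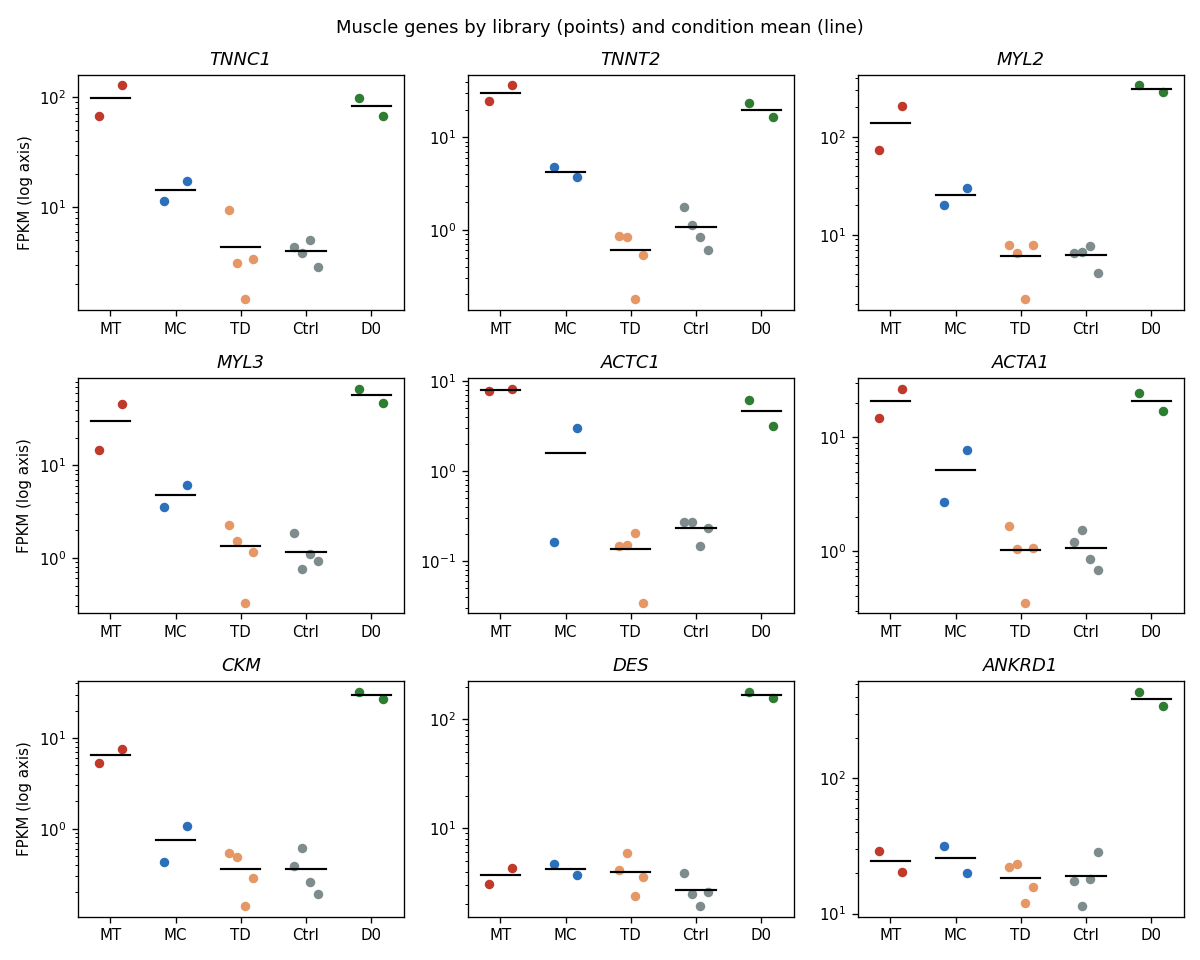
FPKM (log axis) of 9 muscle genes, with points for libraries and lines for condition means, in the order MT, MC, TD, Ctrl and D0. TNNC1, TNNT2, ACTC1 and ACTA1 overlap with or lie above D0 in MT and lie below MT in MC, whereas DES and ANKRD1 have MT and MC points at the same low level, far below D0.

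Summed over the 11 cardiomyocyte markers tested, the level was 200 and 438 FPKM in MT, against 49.9 and 66.9 FPKM in MC. It was 8.14 to 27.9 FPKM in TD, 11.6 to 19.0 FPKM in Ctrl and 470 and 589 FPKM in D0. Most of the MT sum came from the called muscle genes above. None of the 11 tested markers was at 0 in an MT or MC library. Mitochondrially encoded genes also took a larger share of FPKM in MT, at 16.8% and 11.9%, against 9.86% and 9.30% in MC. In MT and in MC the library with the higher marker sum had the smaller share. In D0 it had the larger one, at 13.1% in D0-1 against 10.9% in D0-2. A link between share and marker sum was not tested. All 13 mitochondrially encoded genes, subunits of the respiratory chain and ATP synthase, were higher in MT on average, with a median of 0.64, and 0 passed. ATP6, a subunit of ATP synthase, differed most (1.00, standard error 0.43, adjusted p = 0.277). The part of the mitochondrial share in the other differences was not tested beyond the rescaling without these genes.

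Markers of other cell types differed less. Of 16 endothelial markers tested, 0 were called, 14 were higher in MT on average and the median was 0.37. Their summed level was 209 and 225 FPKM in MT, against 151 and 136 FPKM in MC, so MT and MC did not overlap. It was 112 to 189 FPKM in TD, a range that held both MC sums, 294 to 390 FPKM in Ctrl and 521 and 608 FPKM in D0. CLDN5, the endothelial tight junction protein, had 75.2 and 80.6 FPKM in MT, against 39.6 and 36.1 FPKM in MC, and its difference of 1.02 (standard error 0.32) did not pass (adjusted p = 0.119). Summed fibroblast markers (6789 and 7615 FPKM in MT, 6622 and 7754 FPKM in MC), macrophage markers (860 and 1279 FPKM in MT, 820 and 1228 FPKM in MC) and smooth muscle and pericyte markers (1053 and 1166 FPKM in MT, 906 and 1340 FPKM in MC) overlapped between the conditions, with 0 members called in each. Lymphocyte, adipocyte, Schwann cell and epicardial markers had 4 or 5 members tested each, and 0 were called. No erythroid marker passed the filter.

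Among secreted factors and receptors, IL11 rose. This interleukin, which acts on fibroblasts and is a target of TGF-beta, had 68.3 and 64.1 FPKM in MT, against 17.0 and 16.7 FPKM in MC, 6.75 to 17.4 FPKM in TD, 101 to 160 FPKM in Ctrl and 22.6 and 22.9 FPKM in D0. Both MT libraries lay between TD and Ctrl, and the MC libraries at the upper end of TD. The rise was 1.91 (standard error 0.35, adjusted p = 0.0103), the opposite direction to T3/Dex in static culture (-3.41, adjusted p = 6.48e-06). TNFRSF18, the receptor GITR of the tumour necrosis factor family, had 5.40 and 6.93 FPKM in MT, against 1.07 and 0.0956 FPKM in MC and 3.39 to 11.4 FPKM in Ctrl, and rose by 2.24 (standard error 0.40, adjusted p = 0.00965). IGFBP4, a binding protein that holds insulin-like growth factors, had 166 and 167 FPKM in MT, against 83.0 and 100 FPKM in MC and 369 to 515 FPKM in Ctrl (0.86, standard error 0.21, adjusted p = 0.0461). It was the only called member of 14 genes of the IGF axis, where 3.19% of all genes tested were called, and describes itself only. MFSD13A, a membrane protein of the major facilitator family, had 4.06 and 6.20 FPKM in MT, against 0.374 and 1.10 FPKM in MC (1.83, standard error 0.34, adjusted p = 0.0123). IL11, TNFRSF18, IGFBP4 and MFSD13A were all lower in TD than in Ctrl, and in MT they were higher than in MC.

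CGNL1, a paracingulin of cell junctions on the list of calcium handling and ion channel genes, had 6.91 and 6.85 FPKM in MT, against 2.13 and 1.48 FPKM in MC and 6.10 and 5.32 FPKM in D0. It rose by 1.5 (standard error 0.34, adjusted p = 0.0297) and was the only one of 27 tested members to be called. MFAP5, a microfibril protein of the elastic matrix, had 1.92 and 1.31 FPKM in MT, against 0.408 and 0.320 FPKM in MC (0.93, standard error 0.21, adjusted p = 0.0314), and was the only called gene of 56 collagen and matrix genes, whose median was 0.08. Over all genes tested, 3.19% were called, so 1 call in a list of 27 or 56 genes is near that share. The calls of CGNL1 and MFAP5, and of IL11 and IGFBP4, were lost without MC-1 or MC-2, that of IGFBP4 also without MT-2, that of MFSD13A without MC-1 and that of TNFRSF18 without MC-2.

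DIO3 was among the 10 largest falls of genes above 0 in all 4 libraries, and the genes that follow were others of these. PIAS4, a SUMO ligase, had 2.75 and 2.63 FPKM in MT, against 8.58 and 10.8 FPKM in MC, and fell by 1.53 on the log2 scale (standard error 0.22, adjusted p = 0.0033). NAT10, an acetyltransferase that modifies ribosomal and messenger RNA, had 2.35 and 2.25 FPKM in MT, against 8.16 and 8.86 FPKM in MC (-1.53, standard error 0.24, adjusted p = 0.00428). For both genes the other 10 libraries lay between 6 and 13.5 FPKM, so MT was below every other library. MRPS31, a protein of the mitochondrial ribosome, averaged 13.8 ± 3.72 FPKM in MT and 38.3 ± 4.81 FPKM in MC (SD, n = 2 each; -1.43, standard error 0.26, adjusted p = 0.00965), and here MC was above all D0 and static libraries. Further falls of this size were those of DBF4, the activator of the replication kinase CDC7, NAA35, of an N-terminal acetyltransferase complex, LYAR, a nucleolar protein, ABHD8 and RUSF1, with differences from -1.37 to -1.52. PIAS4 and NAT10 kept their call with any 1 MT or MC library left out. The 6 others named here lost their call without MC-2 and, for DBF4, RUSF1, ABHD8 and NAA35, also without MC-1. RUSF1 and ABHD8 lost it without MT-2 as well. In a table where up to 2854 genes of a library are listed at 0, low MT values of such genes stand beside the zeros, and the part of the zeros in them was not tested.

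Genes called lower with an MT library at 0 included several of the listed families. CCL3L1 and CCL8, chemokines that draw monocytes, were listed at 0 in both MT libraries, against 2.81 and 4.83 FPKM of CCL3L1 and 3.47 and 3.88 FPKM of CCL8 in MC. The cardiac transcription factors TBX5, with 0.918 and 1.04 FPKM in MC, and IRX5, with 0.639 and 1.82 FPKM in MC, were also listed at 0 in both MT libraries. They were the 2 called members of 20, where 2.31% of all genes tested were called lower in MT. As both were listed at 0 in MT, that count is not read as a fall of the list. IFI44, an interferon-induced gene, had 0.496 and 0 FPKM in MT, against 2.38 and 2.96 FPKM in MC, and GBP2, an interferon-induced GTPase above 0 in all libraries, had 0.334 and 0.737 FPKM in MT, against 1.65 and 1.53 FPKM in MC (-0.77, standard error 0.18, adjusted p = 0.0393). MVK, the mevalonate kinase of cholesterol synthesis, had 0.199 and 0 FPKM in MT, against 1.12 and 0.694 FPKM in MC. The highest MC levels among called genes at 0 in both MT libraries belonged to small nucleolar RNAs, guides of RNA modification: SNORD42 (31.1 and 7.92 FPKM in MC), SNORD39 (8.46 and 23.2 FPKM), SNORA52 (11.4 and 16.0 FPKM) and SNORD96 (18.6 and 5.60 FPKM). Leaving out MC-2 ended the calls of TBX5, IRX5, GBP2, IFI44 and SNORA52, leaving out MC-1 those of TBX5, GBP2, MVK and SNORA52, and leaving out MT-2 those of IRX5 and MVK. Of 164 small noncoding RNAs tested, 122 and 135 were listed at 0 in MT-1 and MT-2 (117 in both), against 57 and 94 in MC-1 and MC-2. Among all 11527 genes tested, 1603 were listed at 0 in at least 1 MT library. Small noncoding RNAs make up 13 of the 134 called genes at 0 in both MT libraries, beside 164 of all 11527 genes tested. The RNA was poly(A)-selected, and the part of that selection in their values was not tested. GAPDH, whose entry reads near 0 in all libraries (at most 2.43 FPKM), had 0.476 and 0 FPKM in MT and 0.273 and 2.43 FPKM in MC and cannot serve as a reference.

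Whether the T3/Dex difference in the CTCM departed from that in static culture was tested with the interaction term, (MT - MC) - (TD - Ctrl). It was called for 538 genes (limma, adjusted p under 0.05), 4.67% of those tested, 238 positive and 300 negative, and with limma's sample weights for 29. Of the 538, 154 were listed at 0 in an MT library, and with MT zeros taken as missing the split was 443 positive and 206 negative. Of the 538, 254 were called between MT and MC and 203 between TD and Ctrl, 19 of them in both. The terms of the 192 genes that T3/Dex moved in static culture follow from the position of the MC libraries: 59 of the 74 raised genes and 68 of the 118 lowered genes had a called interaction. In MT against MC the 74 genes had a median of -0.30 (0 higher, 4 lower) and the 118 genes a median of 0.37 (4 higher, 3 lower), whereas the static medians were 1.41 and -1.29. Over all genes tested, 0.885% were called higher in MT and 2.31% lower, with a median of -0.04. Among the 192 genes, 7 of the 74 and 21 of the 118 were listed at 0 in an MT library. Of the 74 genes 62 were lower in MT on average, and of the 118 genes 86 were higher, so the signs ran opposite to the static ones. As the 192 genes were chosen by the static difference, which enters the interaction, these called interactions are a description.

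Among genes above 0 in all MT, MC, TD and Ctrl libraries, the largest negative terms belonged to FMO1 (-5.28, standard error 0.37, adjusted p = 3.16e-05) and DIO3 (-5.15, standard error 0.51, adjusted p = 0.000216). IL1R2, the interleukin 1 decoy receptor, followed with -4.34 (standard error 0.49, adjusted p = 0.000537) and had 70.2 and 74.9 FPKM in MT, against 83.0 and 132 FPKM in MC, 69.9 to 134 FPKM in TD and 4 to 10.1 FPKM in Ctrl. For CIDEC, a lipid droplet protein, the term was -4.12 (standard error 0.51, adjusted p = 0.000841), with 8.46 and 2.29 FPKM in MT, against 9.37 and 13.2 FPKM in MC. PTX3, a soluble pattern recognition protein, had 95.8 and 74.0 FPKM in MT, against 131 and 102 FPKM in MC, 110 to 173 FPKM in TD and 9.76 to 15.4 FPKM in Ctrl (-3.75, standard error 0.30, adjusted p = 3.97e-05). AGT, angiotensinogen, had 35.5 and 39.1 FPKM in MT, against 54.4 and 48.7 FPKM in MC (-3.07, standard error 0.31, adjusted p = 0.000263). In 5 of these 6 genes, all but DIO3, the difference between MT and MC itself did not pass.

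The largest positive terms by the same rule were those of IL11 (5.32, standard error 0.42, adjusted p = 3.97e-05) and TNFRSF18 (4.51, standard error 0.49, adjusted p = 0.00045). SFRP1, a secreted inhibitor of Wnt signalling, had 29.1 and 30.4 FPKM in MT, against 14.1 and 19.3 FPKM in MC, 8.85 to 12.5 FPKM in TD and 70.8 to 116 FPKM in Ctrl (3.71, standard error 0.29, adjusted p = 3.97e-05). Interleukin 6, IL6, had 15.6 and 18.3 FPKM in MT, against 11.7 and 5.90 FPKM in MC, with 30.3 to 46.0 FPKM in Ctrl (3.51, standard error 0.63, adjusted p = 0.00729). SERPINE2, a protease inhibitor of the extracellular space, had 27.6 and 26.2 FPKM in MT, against 15.4 and 15.2 FPKM in MC (3.30, standard error 0.27, adjusted p = 3.97e-05). GZMA, a granzyme of cytotoxic lymphocytes, had 27.5 and 61.4 FPKM in MT and 12.7 and 29.1 FPKM in MC, which overlapped (3.01, standard error 0.59, adjusted p = 0.0129). Apart from GZMA the MT libraries lay above both MC libraries in each of these genes and below all Ctrl libraries in IL11, SFRP1, IL6 and SERPINE2. Muscle genes differed from this pattern, as TD and Ctrl were both low: the interaction of TNNT2 was 2.94 (standard error 0.37, adjusted p = 0.001) with a static difference of -0.37 (adjusted p = 0.492), and that of CKM was 2.09 (standard error 0.30, adjusted p = 0.00241) with a static difference of 0.00 (adjusted p = 0.997).

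Most listed families held no called gene, where 3.19% of all genes tested were called. Between MT and MC, 0 members were called among 34 genes of fatty acid uptake and oxidation, 38 of glycolysis and hypoxia, 56 nuclear respiratory chain genes, 53 cytosolic ribosomal proteins, 43 cell cycle genes, 31 genes of innate immunity and complement, 26 matrix proteases and inhibitors and 27 immediate early genes, with medians from -0.10 to 0.11. The same held for 38 genes of the unfolded protein and amino acid stress response, 32 of drug and steroid metabolism, 16 clock genes, 9 of the angiotensin system and 6 EGF receptor ligands and receptors. Members with large differences that did not pass were DUSP2, a phosphatase of MAP kinases (2.05 and 0.0484 FPKM in MT, 4.32 and 2.77 FPKM in MC, adjusted p = 0.354), FABP3, the heart fatty acid binding protein (4.24 and 0.291 FPKM in MT, 7.38 and 3.32 FPKM in MC, adjusted p = 0.276), PGAM2, the muscle phosphoglycerate mutase (1.32 and 6.59 FPKM in MT, 0.719 and 0.688 FPKM in MC, adjusted p = 0.116) and UBE2C, a ubiquitin enzyme of mitosis (12.8 and 18.7 FPKM in MT, 30.1 and 40.2 FPKM in MC, adjusted p = 0.134). PGAM2, like CKM, is a muscle enzyme, and its MT libraries lay above both MC libraries. With 2 libraries a side these families were not shown to be equal.

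**Figure D5:**
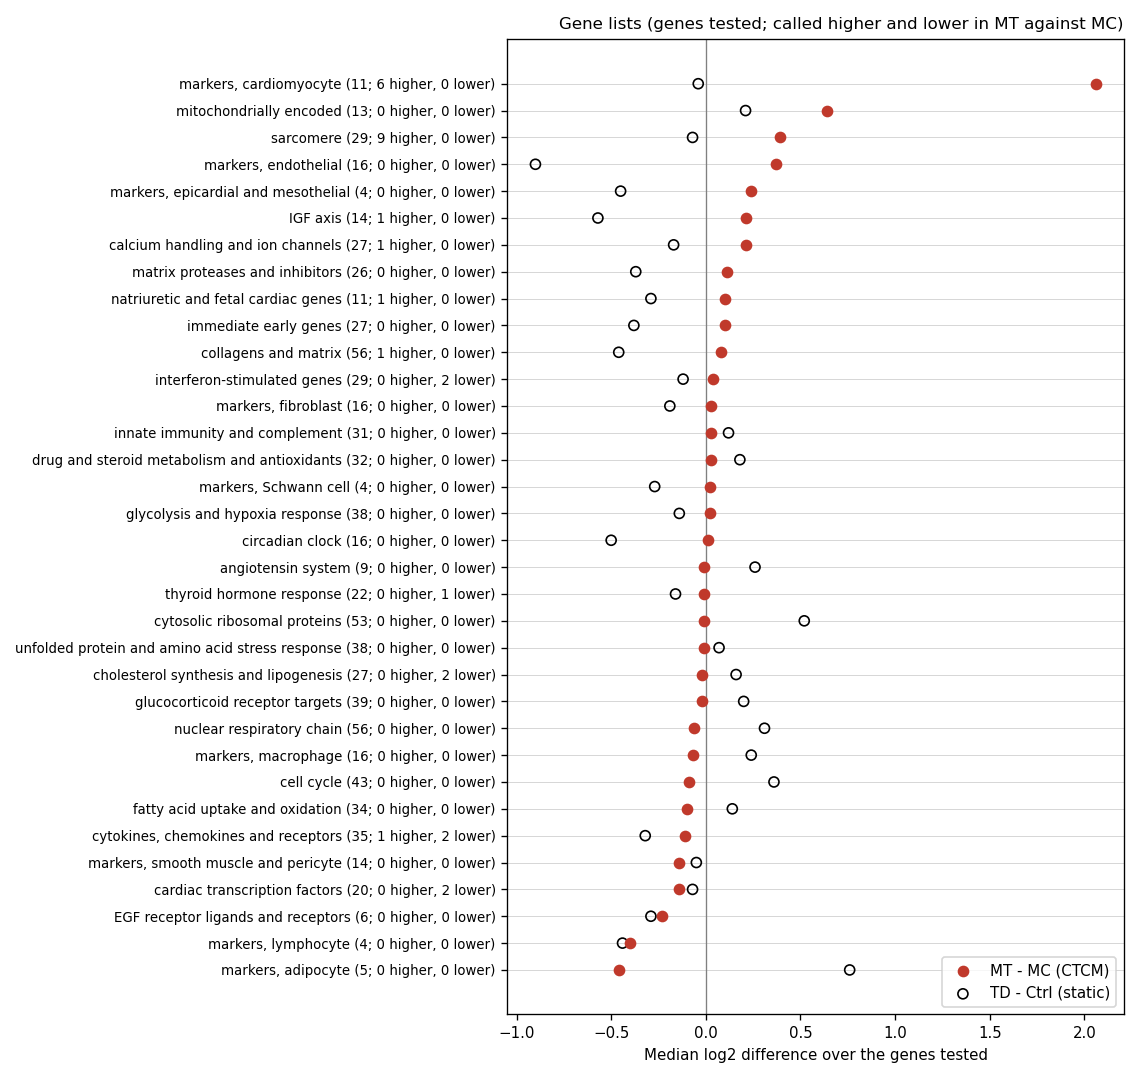
Median log2 difference over the tested genes of each list, for MT - MC (filled) and TD - Ctrl (open), with the number tested and the numbers called higher and lower in MT against MC beside each name. Cardiomyocyte markers (2.06), mitochondrially encoded genes (0.64) and sarcomere genes (0.39) have the highest MT - MC medians, while the TD - Ctrl medians are -0.04 for cardiomyocyte markers, 0.21 for mitochondrially encoded genes and -0.07 for sarcomere genes.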

How the data were processed

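Reads of poly(A)-selected RNA went through CASAVA for base calling and were aligned with HISAT2 to the pig genome Sscrofa11.1, per the labels and methods. For the tool versions, the counting tool and the gene annotation, no name is given in the sources used here. FPKM for 13644 genes in 14 libraries were deposited by the authors. DESeq2, which they name, needs counts and was not run. Symbols come from the table (11135 entries) or by identifier from the reference (594), and 1915 entries have none.

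FPKM were taken as deposited and put on the log2(FPKM + 1) scale. Genes had to reach 1 FPKM in 2 or more libraries, which left 11527. A model with a mean for each of the 5 conditions was fitted to the 14 libraries in limma 3.58.1 (R 4.3.3, eBayes with trend, Benjamini-Hochberg over all genes tested, threshold 0.05), and each adjusted p is from it unless stated. Fold changes on this scale understate those of low genes. The FPKM of 1 read was solved in 2211 genes, where 95.9% to 100.0% of values per library were whole reads within 0.02. It gave relative depth and zeros only, and the total depth is unknown.

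Members and the 35 gene lists were chosen with earlier results of these data known. The text names the 10 largest rises and falls above 0 in all 4 libraries with groups that do not overlap, up to 3 genes per list and direction, the largest change of a list with no call, classical targets of both agents, the 6 largest interaction terms in each direction among genes above 0 in all MT, MC, TD and Ctrl libraries, and the 4 called genes at 0 in an MT library with the highest MC mean. Some genes that meet this rule are not reported here. DES, ANKRD1, LMOD2, CSRP3, CRYAB, FHL2, NEXN, PDLIM5, MYBPC3, ACTN2, MYOZ2 and CKMT2 were named after their values were seen. Code was tested on simulated data (Python 3.11.15, numpy 2.4.6, pandas 2.3.3, matplotlib 3.10.9). The settings varied were the pseudocount, the filter, the scaling, weights, libraries in the fit, a replicate block and the handling of zeros. Each cultured library was also left out in turn, for MT against MC only those of MT and MC. Chosen after seeing the data, the ribosomal protein share or the split of replicate numbers was added as a covariate.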

Additional observations from a re-analysis of the deposited data

Results flagged for a closer look

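The T3/Dex difference differed between the CTCM and static culture by the limma interaction term for 47 of the genes chosen by the naming rule. The 25 given here are the large rises, the hormone targets, the largest terms and 4 more (IGFBP4, CLDN5, CGNL1 and MFAP5, chosen after their values were seen), and the others are mainly genes with a lower mean in MT. For the muscle genes among the large rises the term was 2.74 for TNNC1, 2.94 for TNNT2, 2.37 for MYL2, 2.09 for CKM, 2.18 for ACTC1 and 1.93 for ACTA1. That of MYL3, 2.19, did not pass (limma, adjusted p = 0.0557). MYL2 and ACTA1 passed narrowly (limma, adjusted p = 0.0484 and 0.048). Their terms kept the call in 8 of 29 and 7 of 28 other settings. Terms of genes that T3/Dex lowered in static culture were 5.32 for IL11, 4.51 for TNFRSF18, 3.71 for SFRP1, 3.51 for IL6, 3.30 for SERPINE2, 3.01 for GZMA, 2.90 for IGFBP4, 2.83 for MFSD13A and 2.40 for CLDN5. CGNL1 and MFAP5, with no called static difference, had 2.08 and 1.27. Negative terms stood at -5.28 for FMO1, -5.15 for DIO3, -4.34 for IL1R2, -4.12 for CIDEC, -3.75 for PTX3, -3.07 for AGT, -2.07 for FKBP5 and -0.97 for TSC22D3, all genes that T3/Dex raised in static culture. For these 8 and for the genes lowered in static culture, the MC mean lay nearer the TD mean than the Ctrl mean, and what placed it there was not tested.

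One Ctrl library stood apart from the other 3 in MYH7, at 0.218 FPKM, among 64 groups of 4 libraries checked, where chance flags about 1 group in 20. The level is close to 0 and enters no result.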

How the results depend on the processing

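The number of genes called between MT and MC, 368, depended on the settings. It was 230 with a pseudocount of 5, 64 with at least 5 FPKM in 2 libraries, 0 where genes had to average 20 FPKM or more (limma, 116 at an unadjusted p under 0.05), 181 after quantile normalization, 0 with the 4 libraries alone (595 at an unadjusted p under 0.05), 1 with sample weights or with 1 weight per condition, 113 over genes above 0 in all 4 libraries and 936 with the ribosomal protein share as a covariate. The 1 gene, chosen after its values were seen, was an entry for the spliceosomal RNA U6 with 22.7 and 3.90 FPKM in MT and 0 in all other libraries. The share of calls higher in MT also moved: 102 of 368 as reported, 261 of 378 with zeros in MT taken as missing, 102 of 181 after quantile normalization and 49 of 297 after rescaling to TPM, which shifts the median of all genes to -0.17 (-0.12 without mitochondrially encoded genes and ribosomal proteins, 69 of 375). Leaving out 1 library gave 217 to 2127 calls.

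The 538 interaction calls became 247 at 5 FPKM, 78 at a mean of 20 FPKM, 346 after rescaling to TPM, 29 with sample weights, 31 with 1 weight per condition and 1053 with the covariate, and 321 to 2040 without 1 library. Their split of 238 positive and 300 negative became 443 and 206 with MT zeros taken as missing and 318 and 201 after quantile normalization. FMO1, PTX3, IL11, SERPINE2, SFRP1, IGFBP4 and CIDEC kept their call in all settings run. The share of static T3/Dex genes nearer TD was 83.6% to 100% in MC-1 and MC-2 over all settings.

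Replicate numbers were not treated as pairs, since the labels give no shared pig or batch. With 2 pairs the deviations of MT-1 and MC-1 correlated at 0.169. The difference between high and low replicate numbers correlated over genes at 0.402 between TD and Ctrl and at 0.187 between MC and TD. Apart from MT with MC, it correlated at 0.0915 or less between the other conditions. The TD and Ctrl libraries thus shared some structure by replicate number. With the replicate number as a block, 193 genes were called between MT and MC and 306 for the interaction, and 15 of the 35 genes called among those chosen by the naming rule lost their call, MYL2, MYL3, ACTC1, CGNL1, MFAP5, IGFBP4, TBX5 and IRX5 among them. Some genes did split by number in all cultured conditions: DDIT4, chosen after its values were seen, had 97.1 and 678 FPKM in MT, 113 and 493 FPKM in MC, 122, 138, 607 and 512 FPKM in TD and 68.5, 90.9, 767 and 754 FPKM in Ctrl, in replicate order. With that split as a covariate, chosen after seeing the data, 417 and 600 genes were called and all 35 kept their call.

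None of the 76 genes chosen by the naming rule changed sign where it was called (MYOZ2, CKMT2 and U6 were not rerun). In MT against MC, TNNT2, CKM, PIAS4 and NAT10 lost their call in 3 settings each: the 4 libraries alone and both weightings (adjusted p of TNNT2 from 0.000337 to 0.603 over its settings, and of CKM from 0.000262 to 0.436). TNNC1, MYL2 and MYL3 also lost it without MC-1 or without MT-2, among other settings. With 2 libraries a side and 1 shallow library in each, values under about 1 FPKM rest on few reads.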

Other observations

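Endothelial genes gave values that no comparison of MT with MC called. In static culture 8 of the 16 tested markers were lower with T3/Dex, beside 256 of all 11527 genes tested. For 6 of the 16 the interaction term was positive and called, beside 238 of all genes tested. The static fall of these markers itself enters that term. KDR, the main receptor for vascular endothelial growth factor, had 4.04 and 2.37 FPKM in MT, against 1.71 and 0.672 FPKM in MC, 0.515 to 2.08 FPKM in TD, 5.74 to 7.38 FPKM in Ctrl and 15.3 and 12.9 FPKM in D0. NOS3, endothelial nitric oxide synthase, had 2.78 and 1.29 FPKM in MT, against 1.28 and 0.856 FPKM in MC. Neither passed between MT and MC (limma, adjusted p = 0.163 and 0.463). Both genes were chosen after their values were seen.

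TRIM63, a ubiquitin ligase of muscle atrophy and a glucocorticoid target in skeletal muscle, had 3.06 and 0.189 FPKM in MT, against 4.97 and 5.60 FPKM in MC, 3.01 to 5.77 FPKM in TD and 0.619 to 1.19 FPKM in Ctrl. The 2 MT libraries lay on either side of the Ctrl range, and the difference from MC (-1.52, standard error 0.44) did not pass (limma, adjusted p = 0.089). It was chosen after its values were seen.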
